A study of Mus musculus with 26 samples.

Results

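The transcription factors of the Hand, Twist, Snail and Zeb families were followed across sorted mesenchymal cells of the mouse reproductive tract. The group was chosen by name and comprises 8 genes: Hand1, Hand2, Twist1, Twist2, Snai1, Snai2, Zeb1 and Zeb2. All 8 were found by symbol in both deposited tables of read counts per gene, each of which lists 41442 gene rows. The fetal table holds 12 RNA-seq libraries of Gli1+ cells of the mesonephros, which were XX or XY at E14.5 or E16.5 (days of embryonic development), with 3 libraries in each group. The uterine table holds 3 libraries of Amhr2+ cells and 3 of Gli1+ cells from the neonatal uterus, labelled female and E19.5. A list of open-chromatin peaks from 8 ATAC-seq samples of the fetal Gli1+ cells was used for the gene starts.

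The sorted cells carried a Tomato reporter at the Rosa locus. Gli1+ cells came from embryos with Gli1-CreER, a tamoxifen-dependent Cre in cells that express Gli1, a transcription factor and target of hedgehog signalling. Amhr2+ cells came from embryos with Amhr2-Cre, a Cre in cells that express the receptor of anti-Müllerian hormone. Per the labels, dams of both kinds of embryo received 1 mg tamoxifen on E12.5 and E13.5, so Gli1+ cells at later ages can be descendants of cells that expressed Gli1 on those days. The mesonephros carries the Wolffian and the Müllerian duct. The design compares its mesenchyme by sex and age, and the Amhr2+ with the Gli1+ cells of the uterus.

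Hand and Twist proteins are basic helix-loop-helix (bHLH) factors, which bind DNA as dimers, often with an E protein, at E-boxes with the core CANNTG. Snail and Zeb proteins are zinc-finger repressors that bind the E-box CACCTG or its complement CAGGTG, and are known for lowering epithelial genes such as the E-cadherin gene Cdh1 in mesenchymal cells. Hand2 is known in uterine stroma as a gene induced by progesterone that holds back fibroblast growth factor ligands.

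The fetal libraries held 23382983 to 64602477 counts each, the uterine ones 28709191 to 37541045. Levels are in CPM, the count scaled to the size of the library, and errors are SD over the 3 libraries of a group. Nothing in the labels says whether the libraries of a group came from separate animals. The p-values therefore measure the spread between libraries of a group, which may be technical. In the main fetal tests all 12 libraries shared a single estimate of that spread, also those outside the groups compared. In sorted bulk cells, fewer cells with a transcript and less of it per cell cannot be told apart. The 8 mesenchyme markers checked (Pdgfra, Pdgfrb, Nr2f2, Dcn, Lum, Col6a1, Col6a2 and Mfap4) summed to between 8716 and 17016 CPM, and none was under 1 CPM in any group. These 8 markers themselves differed between groups in edgeR (adjusted p under 0.05). Between the sexes 2 of 8 were called at E14.5 and 6 of 8 at E16.5, against 6.28% and 27.3% of all genes. With age 8 of 8 were called in XX and 6 of 8 in XY, against 39.6% and 23.3%. In Amhr2+ uterine cells 5 of 8 were lower, against 13.7% of all genes, and none was higher. Cdh1 had group means between 0.414 and 1.84 CPM. Red cell genes summed to 118 CPM in 1 of the XX E14.5 libraries and to at most 49.4 CPM in any other. Amhr2 measured 11.1 ± 4.31 CPM in Amhr2+ and 4.10 ± 0.997 CPM in Gli1+ uterine cells, and Gli1 measured 10.5 ± 2.63 and 17.9 ± 2.85 CPM. In the fetal cells Gli1 measured 184 ± 0.295 CPM in XX and 228 ± 17.0 CPM in XY at E14.5. At E16.5 it measured 50.7 ± 2.88 CPM in XX and 208 ± 13.3 CPM in XY. Fetal Amhr2 measured 30.6 ± 1.84 CPM in XX and 8.47 ± 1.45 CPM in XY at E14.5, then 13.3 ± 3.83 and 1.82 ± 0.503 CPM at E16.5. The part of these differences in those of the 8 genes was not tested.

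Promoter sequence is shown for the 4 members with 1 promoter in the RefSeq sequence table and 1 open-chromatin peak at their start. Each is the 250 bases before the start on the plus strand of GRCm38.p6, the assembly also called mm10, with every CANNTG in capitals; the search covered both strands, on which this motif reads alike.
Hand2, chr8:57320733-57320982: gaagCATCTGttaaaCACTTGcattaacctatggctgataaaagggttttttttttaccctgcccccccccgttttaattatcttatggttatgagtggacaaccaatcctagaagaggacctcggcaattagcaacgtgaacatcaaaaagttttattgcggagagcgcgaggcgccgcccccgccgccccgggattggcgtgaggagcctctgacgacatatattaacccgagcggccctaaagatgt
Twist1, chr12:33957421-33957670: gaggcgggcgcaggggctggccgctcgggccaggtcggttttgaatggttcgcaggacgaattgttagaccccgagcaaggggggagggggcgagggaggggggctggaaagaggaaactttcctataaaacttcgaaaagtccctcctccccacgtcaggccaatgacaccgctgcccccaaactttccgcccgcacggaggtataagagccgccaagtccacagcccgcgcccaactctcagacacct
Twist2, chr1:91801211-91801460: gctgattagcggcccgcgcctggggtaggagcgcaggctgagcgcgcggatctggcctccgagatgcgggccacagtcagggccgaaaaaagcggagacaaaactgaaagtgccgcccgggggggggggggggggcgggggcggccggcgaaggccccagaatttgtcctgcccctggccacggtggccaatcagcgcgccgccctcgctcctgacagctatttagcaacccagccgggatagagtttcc
Snai1, chr2:167537945-167538194: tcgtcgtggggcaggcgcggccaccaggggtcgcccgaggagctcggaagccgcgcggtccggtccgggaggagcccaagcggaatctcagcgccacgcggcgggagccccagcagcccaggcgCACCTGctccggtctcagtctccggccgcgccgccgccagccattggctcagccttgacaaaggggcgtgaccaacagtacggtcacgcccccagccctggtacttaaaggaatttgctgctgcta
The Hand2 stretch held 2 matches, CATCTG at -246 and CACTTG at -235, counted from the start site. The Snai1 stretch held 1, CACCTG at -126, which has the letters that Snail and Zeb proteins bind. No CANNTG was found in the Twist1 and Twist2 stretches. Of 32817 mouse promoters of the same length in the table, 66.2% held CANNTG and 17.2% held CACCTG or CAGGTG, a subset of the first. All 250 bases of the Twist1, Twist2 and Snai1 stretches lay inside a peak, against 57 bases of the Hand2 stretch. Neither CANNTG of Hand2 lay in those 57 bases next to the start.

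The deposited peak list has 71040 peaks for all samples together, so no peak was compared between sexes or ages. A peak lay within 1 kb of an annotated start for 7 of the 8 members, all except Hand1. The same held for 89.13% of 14577 tested fetal genes with a symbol in the annotation. With the peak required to cover the start itself the members' count was 6 of 8, against 81.26% of the same tested genes. Hand1 was not among those tested genes. The Hand2 peak was the narrowest of the single peaks at a start, 70 bp on chromosome 8 from 57320926 to 57320995, against a median width of 233 bp over the list. The Twist1 peak was 1023 bp wide (chromosome 12, 33957097 to 33958119) and the Twist2 peak 783 bp (chromosome 1, 91801052 to 91801834). Those of Snai1 and Snai2 spanned 322 bp (chromosome 2, 167537918 to 167538239) and 526 bp (chromosome 16, 14705405 to 14705930). Zeb1 had 3 peaks and Zeb2 had 5 near their many annotated starts. Within 50 kb of the gene the list held between 3 peaks, for Snai2, and 14, for Snai1. Hand1 had 5 such peaks and Hand2 had 8.

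**Figure D1:**
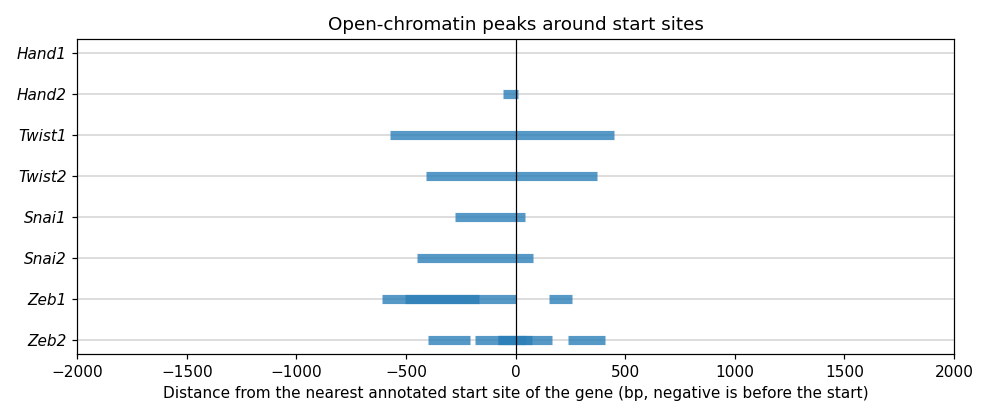
Open-chromatin peaks around the start sites of the 8 genes; the horizontal axis is the distance in bp from the nearest annotated start and each bar is a peak drawn to scale. The Hand1 line has no bar, the Hand2 bar is 70 bp wide and the Twist1 bar is 1023 bp wide.

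Hand1, a factor of heart and placenta development (chromosome 11, 57828705 to 57832818), had at most 9 counts in any library. Its counts were 3, 0 and 0 in XX E14.5, 0, 9 and 5 in XY E14.5, 0, 1 and 0 in XX E16.5, and 1, 0 and 0 in XY E16.5. All 6 uterine libraries had a count of 0. A count of 0 allows up to 3 counts, which is 0.0485 to 0.126 CPM in the fetal and 0.0778 to 0.102 CPM in the uterine libraries, for counting error only. Hand1 did not pass the filter on low counts in either table and was not tested; the other 7 members passed in both.

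Hand2 (chromosome 8, 57320983 to 57324633) was lowest in XY cells at E16.5. Its values were 11.7, 14.7 and 15.6 CPM in XX E14.5, 9.42, 16.9 and 11.6 in XY E14.5, 11.8, 14.8 and 11.3 in XX E16.5 and 7.02, 5.26 and 6.29 in XY E16.5. The 3 XY E16.5 libraries lay below the other 9, which overlapped one another. The group means were 14 ± 2.04, 12.6 ± 3.82, 12.6 ± 1.92 and 6.19 ± 0.884 CPM.

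Twist1 (chromosome 12, 33957671 to 33959829), a mesenchymal bHLH factor needed in the skull and limb, had its lowest values in the same group. It measured 38.1, 36.8 and 41.6 CPM in XX E14.5, 30.6, 40.8 and 35.6 in XY E14.5, 40.0, 35.8 and 36.8 in XX E16.5 and 26.6, 24.1 and 27.6 in XY E16.5. Again the 3 XY E16.5 libraries were the lowest and the other 9 overlapped. Twist2 (chromosome 1, 91801461 to 91848028), its close relative known from the dermis, did not. Its levels were 32.3, 32.6 and 33.2 CPM in XX E14.5, 35.2, 39.0 and 39.8 in XY E14.5, 35.3, 36.5 and 37.3 in XX E16.5 and 40.9, 37.3 and 42.6 in XY E16.5. XX E14.5 was the lowest group for Twist2, below all other libraries, and the remaining groups overlapped.

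Snai1 (chromosome 2, 167538195 to 167542814), which encodes the zinc-finger repressor Snail, measured 44.8, 41.4 and 39.0 CPM in XX E14.5 and 31.0, 48.3 and 40.2 in XY E14.5. At E16.5 it measured 29.0, 32.5 and 23.7 CPM in XX and 22.3, 17.6 and 22.8 in XY. The XY E16.5 libraries were again the lowest, and XX E16.5 overlapped XY E14.5. Snai2 (chromosome 16, 14705852 to 14709385), which encodes Slug, measured 63.4, 74.7 and 69.7 CPM in XX E14.5, 51.7, 58.1 and 65.2 in XY E14.5, 65.6, 59.0 and 44.1 in XX E16.5 and 48.5, 44.6 and 48.7 in XY E16.5. For Snai2 the XX E16.5 libraries spread across the ranges of all 3 other groups.

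Zeb1 and Zeb2 encode large repressors with 2 clusters of zinc fingers. Zeb1 (chromosome 18, 5591860 to 5775467) measured 291, 278 and 272 CPM in XX E14.5, 279, 248 and 255 in XY E14.5, 249, 239.8 and 220.3 in XX E16.5 and 198, 207 and 204 in XY E16.5. Each group overlapped its neighbour in that order except the last, which lay below all others. Zeb2 (chromosome 2, 44983632 to 45117395) measured 277, 253 and 242 CPM in XX E14.5, 215, 213 and 214 in XY E14.5, 296, 289 and 273 in XX E16.5 and 174, 248 and 243 in XY E16.5. Replicate 1 of XY E16.5 stood below the other 2 of its group. XX E16.5 was highest for Zeb2 and overlapped only XX E14.5.

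**Figure D2:**
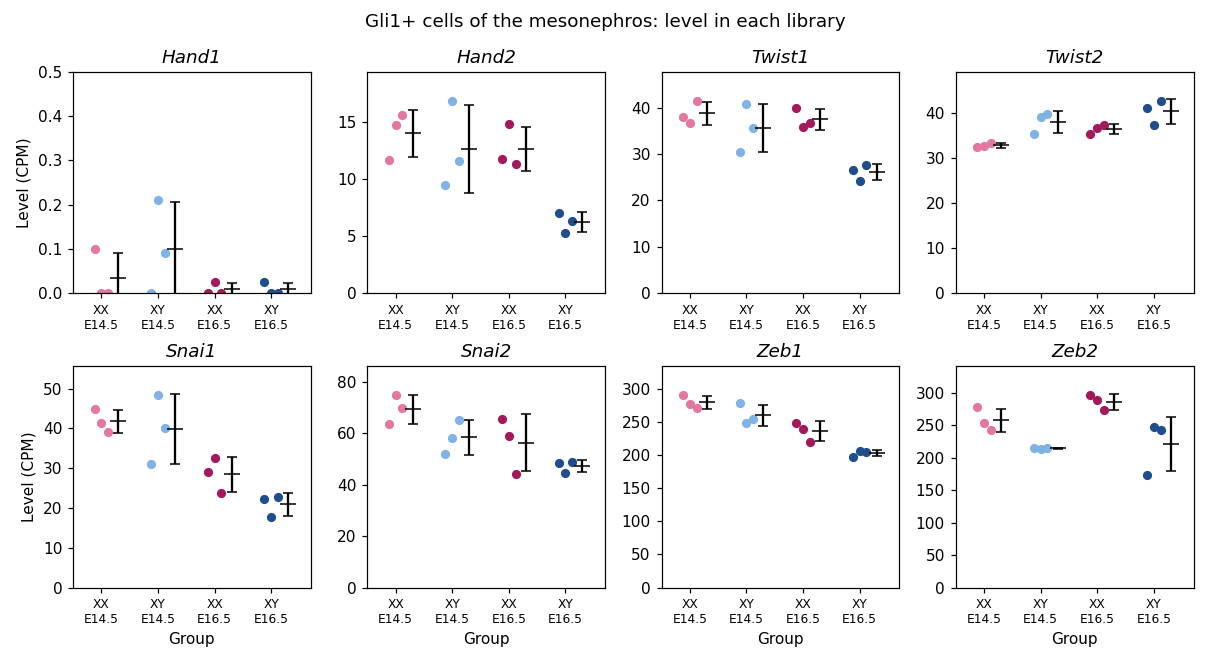
Level of each gene in CPM in the 12 fetal Gli1+ libraries, by sex and age; points are libraries, and the bar beside them is the mean and SD of the 3. The XY E16.5 points are the lowest for Hand2 and Twist1, and Hand1 stays under 0.5 CPM.

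At E14.5 none of the 7 tested members differed between XX and XY in edgeR's quasi-likelihood test (adjusted p under 0.05). Of all 17858 genes tested 6.28% did, 2.59% higher and 3.69% lower in XX. At an unadjusted p under 0.05 there were 2, and DESeq2 called 0. Values of the sexes did not overlap for 2 members, against 27.2% of all genes: Twist2, with a log2 fold change (XX minus XY) of -0.22 and an adjusted p of 0.0874, and Zeb2, with 0.27 and 0.172. Hand2 had a log2 difference of 0.14 with a 95% interval from -0.27 to 0.55. With only the groups compared Zeb2 had an adjusted p of 0.0171, and without XY E14.5 replicate 1 Twist2 had 0.0273. That library was also the lowest of its group for Hand2, Twist1, Snai1 and Snai2, and it had the smallest total in the fetal table. Markers of other cell types differed at this age. Of 7 smooth muscle genes 4 were lower in XX and none was higher (312 to 336 CPM in sum, against 634 to 928 in XY). Of 6 endothelial genes 2 were higher in XX and none was lower. Their part in the values of the 7 factors was not tested.

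At E16.5, 4 of the 7 members were higher in XX and none was lower, against 27.3% of all genes called, 13.2% higher and 14.1% lower. Hand2 was 2.04-fold higher in XX, 1.03 on the log2 scale (SE 0.194, adjusted p 0.00125). Twist1 was higher by 0.52 on the log2 scale (SE 0.0952, adjusted p 0.000683). Zeb1 differed by 0.22 (adjusted p 0.0177) and Zeb2 by 0.37 (adjusted p 0.0156). The calls of the Zeb genes were lost under some alternatives. Zeb1 had an adjusted p of 0.12 without XX E16.5 replicate 1, 0.0866 without XX E16.5 replicate 2 and 0.0551 without XY E16.5 replicate 3. For Zeb2 it was 0.0643 and 0.0584 without XX E16.5 replicates 1 and 2, and 0.066 with only the groups compared. Without XY E16.5 replicate 1 its log2 difference was 0.22, with an adjusted p of 0.0169.

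The other 3 members did not pass at E16.5. Snai1 had a log2 difference of 0.44 (95% interval 0.10 to 0.78, adjusted p 0.0533) with no overlap between the sexes. Its adjusted p was 0.0213 with DESeq2, 0.049 with only the groups compared and 0.0204 without XX E16.5 replicate 3. DESeq2 called 5 of the 7 members. Snai2 had 0.25 (95% interval -0.01 to 0.51), and its adjusted p went from 0.154 to 0.00826 without the same library, which held the lowest Snai2 value of its group. Twist2 had -0.15 (95% interval -0.30 to -0.00), the only member with a value below 0. The ranges of the sexes did not overlap for 5 of the 7 members, against 38.3% of all genes. The median log2 difference of the 7 was 0.37, and that of all genes 0.01.

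Markers of other cell types also differed between the sexes at E16.5. The 7 smooth muscle genes (led by Acta2) summed to 486 to 588 CPM in XX E16.5 and 1770 to 2969 CPM in XY E16.5, and 6 of 7 were lower in XX. The 6 immune genes (led by Cd68) summed to 29.7 to 76.1 CPM in XX and 12.9 to 47.1 CPM in XY, with 4 of 6 higher in XX. The immune sum is mostly Cd68, which measured 34.5 ± 17.1 CPM in XX and 30.8 ± 19.2 CPM in XY. The part of either set of markers in the differences of the 7 factors was not tested.

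**Figure D3:**
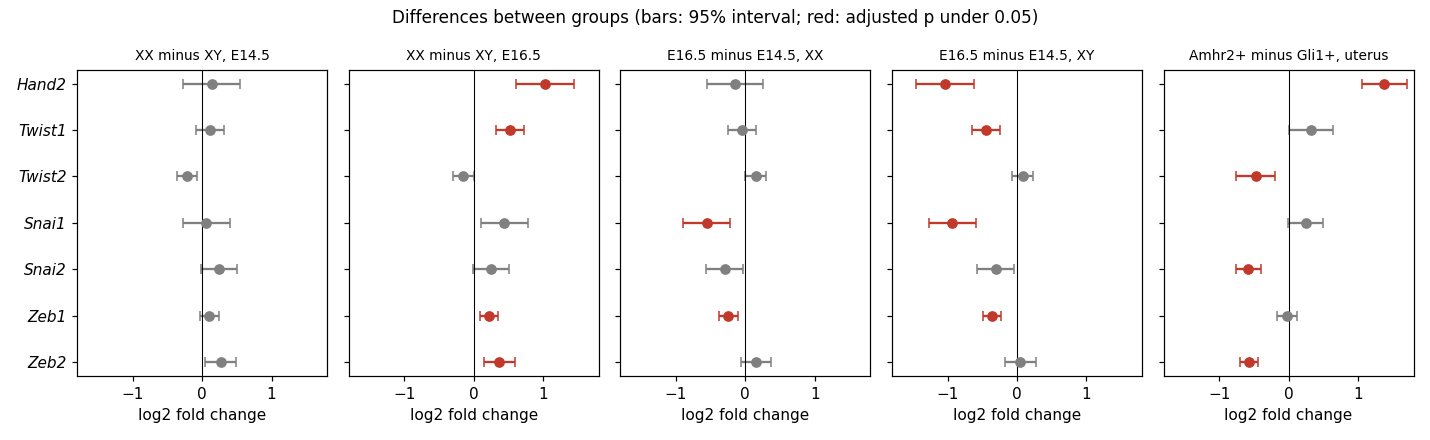
Log2 fold changes of the 7 tested genes in the 5 comparisons between groups, with 95% intervals; red marks an adjusted p under 0.05. Hand2 stands at 1.03 in XX minus XY at E16.5, at -1.03 in E16.5 minus E14.5 of XY, and at 1.38 in Amhr2+ minus Gli1+ uterine cells.

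Whether the sex difference itself changed with age was tested as an interaction. None of the 7 members passed, against 10% of all genes (4.66% positive and 5.36% negative). At an unadjusted p under 0.05 there were 2, and DESeq2 called 1. Those 2 were Hand2, with an interaction of 0.89 on the log2 scale (95% interval 0.30 to 1.47, adjusted p 0.0544), and Twist1, with 0.40 (95% interval 0.12 to 0.69, adjusted p 0.0734). With the replicate number as a block both passed, Hand2 at 0.84 (adjusted p 0.0216) and Twist1 at 0.39 (adjusted p 0.0405). Without XY E14.5 replicate 1 the values were 1.05 (adjusted p 0.0139) and 0.50 (adjusted p 0.0123). Hand2 also passed without XY E16.5 replicate 1, at 0.98 (adjusted p 0.0422).

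From E14.5 to E16.5, 4 of the 7 members fell in the XY cells and none rose, against 23.3% of all genes called, 10.2% that fell and 13.1% that rose. Hand2 fell by 1.03 on the log2 scale (SE 0.194, adjusted p 0.00138), Snai1 by 0.93 (SE 0.156, adjusted p 0.000733), Twist1 by 0.45 (adjusted p 0.00255) and Zeb1 by 0.36 (adjusted p 0.000646). Twist2 had a log2 change of 0.08, Zeb2 of 0.05 and Snai2 of -0.31, none past the threshold. Zeb2 passed without XY E16.5 replicate 1, at 0.20 with an adjusted p of 0.0408. Ranges did not overlap between the ages for 5 of 7 members, against 34.9% of all genes. The 7 smooth muscle genes all rose over this interval, from 634 to 928 CPM in sum to 1770 to 2969 CPM. Their part in the falls was not tested.

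In the XX cells 2 of the 7 members fell and none rose, against 39.6% of all genes called, 18.6% that fell and 21% that rose. Snai1 fell by 0.55 on the log2 scale (SE 0.156, adjusted p 0.0133) and Zeb1 dropped by 0.25 (SE 0.0639, adjusted p 0.0068). Snai1 had an adjusted p of 0.0532 without XX E14.5 replicate 1 and of 0.0567 without the low-count filter. With only the groups compared Twist2 (0.15, adjusted p 0.0351) and Zeb2 (0.15, adjusted p 0.0443) passed as well. Snai2 had a log2 change of -0.30 (adjusted p 0.0677), 0.0488 with library size alone and 0.0178 without XX E16.5 replicate 1. Hand2 had -0.15 (95% interval -0.56 to 0.26) and Twist1 -0.05 (95% interval -0.25 to 0.15). Groups did not overlap for 3 of 7 members, against 56.6% of all genes. Over the same interval 4 of 6 immune genes rose (58.8 to 67.8 CPM in sum at E14.5, 29.7 to 76.1 at E16.5) and 4 of 6 endothelial genes fell (115 to 126 CPM, then 65.0 to 78.4). The immune sum mostly follows Cd68, with means of 57.4 ± 7.66 CPM at E14.5 and 34.5 ± 17.1 CPM at E16.5. Of 7 smooth muscle genes 4 rose and 1 fell (312 to 336 CPM, then 486 to 588), and of 6 tested gonadal genes 1 rose and 4 fell. Their part was not tested. Each age comparison shares its libraries with the sex comparisons above, so the changes of Hand2 and Twist1 in XY over time and between the sexes at E16.5 rest on the same 3 XY E16.5 libraries. Under library size alone, without TMM factors, the share of called genes that rose moved from 56.1% to 41.2% in XY and from 53% to 44.4% in XX.

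In the neonatal uterus Hand2 was the member that differed most between the sorted populations. Its values were 119, 123 and 95.5 CPM in Amhr2+ and 49.7, 35.6 and 44.7 CPM in Gli1+ cells, with no overlap. Amhr2+ cells had 2.60-fold more (113 ± 15.0 against 43.4 ± 7.14 CPM), or 1.38 on the log2 scale (SE 0.14, edgeR adjusted p 0.000463). It was the 1 member of 7 higher in Amhr2+ cells, and 3 were lower, against 23.9% of all 16195 genes called, 10.1% higher and 13.7% lower. Under library size alone the share of called genes that were higher moved from 42.5% to 63.5%.

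Zeb2 stood at 135, 135 and 127 CPM in Amhr2+ and 201, 188 and 199 CPM in Gli1+ cells, -0.57 on the log2 scale (SE 0.0577, adjusted p 0.000325). Snai2 stood at 36.9, 35.0 and 33.3 against 52.7, 56.6 and 48.2 CPM, a log2 difference of -0.58 (SE 0.0791, adjusted p 0.00143). Both genes separated the populations without overlap. Twist2 measured 42.4, 41.4 and 34.2 against 61.6, 45.8 and 57.0 CPM, -0.48 (SE 0.124, adjusted p 0.0265). Twist2 missed the threshold when Amhr2+ replicate 1 (adjusted p 0.0528), 2 (0.0506) or 3 (0.0669) was left out and likewise Gli1+ replicate 1 (0.0911) or 3 (0.064).

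The relatives of those 3 genes did not pass in the uterus. Zeb1 measured 214, 229 and 206 CPM in Amhr2+ and 214, 224 and 223 CPM in Gli1+ cells, with overlapping ranges and a log2 difference of -0.02 (95% interval -0.16 to 0.12). Snai1 measured 28.3, 28.0 and 35.2 against 24.0, 28.5 and 24.5 CPM, a log2 difference of 0.24 (95% interval -0.01 to 0.50). Twist1 measured 26.1, 28.2 and 21.6 against 19.8, 17.2 and 23.6 CPM, 0.33 (95% interval 0.01 to 0.64, adjusted p 0.123), and passed with library size alone (0.41, adjusted p 0.049). Ranges did not overlap for 4 of the 7 members, against 44.4% of all genes.

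Other markers moved between the uterine populations too. The 5 mesothelium genes (led by Wt1) summed to 283 to 339 CPM in Amhr2+ and 175 to 210 CPM in Gli1+ cells, with Wt1 alone called. The other 4 were not called: Msln, for one, measured 3.07 against 4.98 CPM. The 20 epithelial genes summed to 80.8 to 86.0 CPM against 37.1 to 53.7 CPM, and the 7 smooth muscle genes to 1181 to 1831 against 2170 to 2401 CPM. Red cell genes summed to 1.67 to 2.46 against 7.66 to 8.52 CPM, and all 3 tested were lower in Amhr2+ cells. Endothelial genes summed to 24.0 to 29.8 against 37.2 to 45.2 CPM, with 3 of 6 lower, and the 1 germ cell gene tested was lower. Their part in the differences of the factors was not tested.

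**Figure D4:**
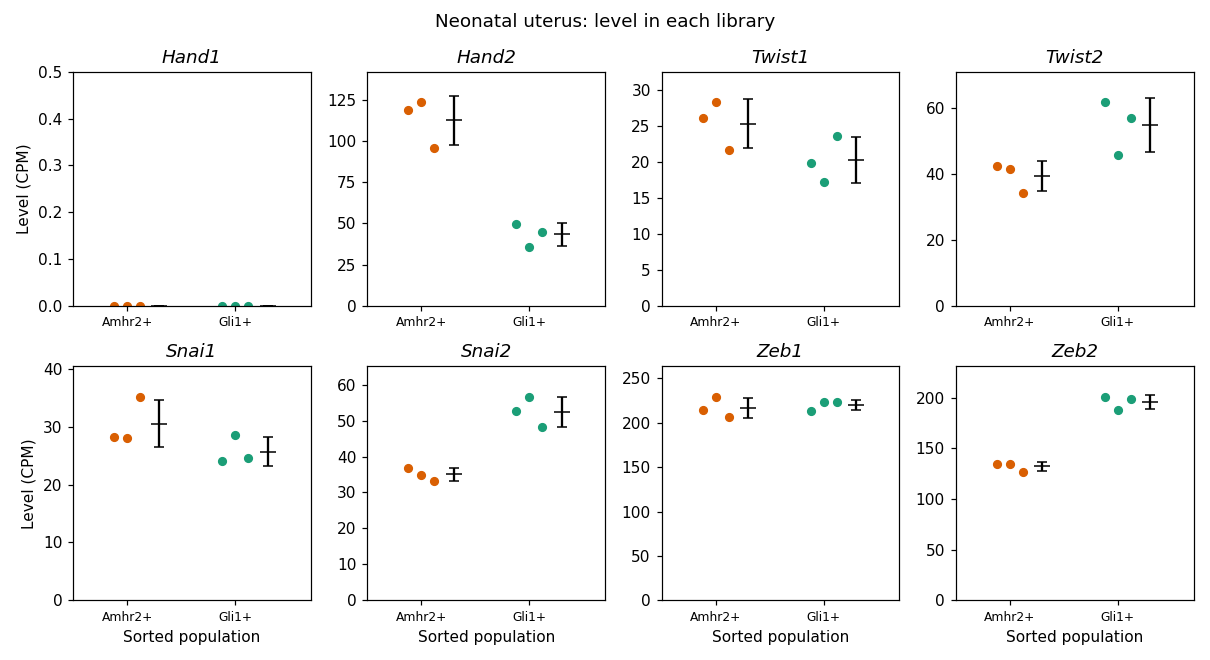
Level of each gene in CPM in the 6 uterine libraries, Amhr2+ and Gli1+; points are libraries, and the bar beside them is the mean and SD of the 3. Hand2 lies near 113 CPM in Amhr2+ and 43.4 CPM in Gli1+ cells, while the Zeb1 points of the populations overlap.

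The ratio of counts of 2 relatives within a library removes what acts on the whole library alike. These ratios were chosen after the levels had been seen, over 4 pairs of genes and 20 comparisons, each with an exact permutation test, two-sided, that cannot go below 0.1 with 3 against 3, before or after adjustment for the 20 comparisons. The log2 ratio of Twist1 to Twist2 was 0.24 ± 0.0752 in XX and -0.10 ± 0.144 in XY at E14.5. At E16.5 it was 0.04 ± 0.119 in XX and -0.63 ± 0.00487 in XY. The sexes did not overlap at either age (difference 0.34 and 0.67; exact p 0.1 each). In the uterus the ratio was higher in Amhr2+ cells by 0.80 (exact p 0.1).

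For Snai1 to Snai2 the log2 ratio was lower at E16.5 than at E14.5, with a difference of -0.62 in XY and -0.25 in XX and no overlap (exact p 0.1 each). Between the sexes the ranges overlapped, and in the uterus the ratio was higher in Amhr2+ cells by 0.82 (exact p 0.1). For Zeb1 to Zeb2 the ratio was 0.12 ± 0.0499 in XX at E14.5 and -0.28 ± 0.0308 at E16.5. In XY it went from 0.28 ± 0.0829 to -0.11 ± 0.258, without overlap (exact p 0.1). Between the sexes this ratio did not overlap at E14.5 (XX minus XY -0.16, exact p 0.1), and it overlapped at E16.5. Uterine Amhr2+ cells had 0.71 ± 0.0486 and Gli1+ cells 0.17 ± 0.0809 (exact p 0.1).

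**Figure D5:**
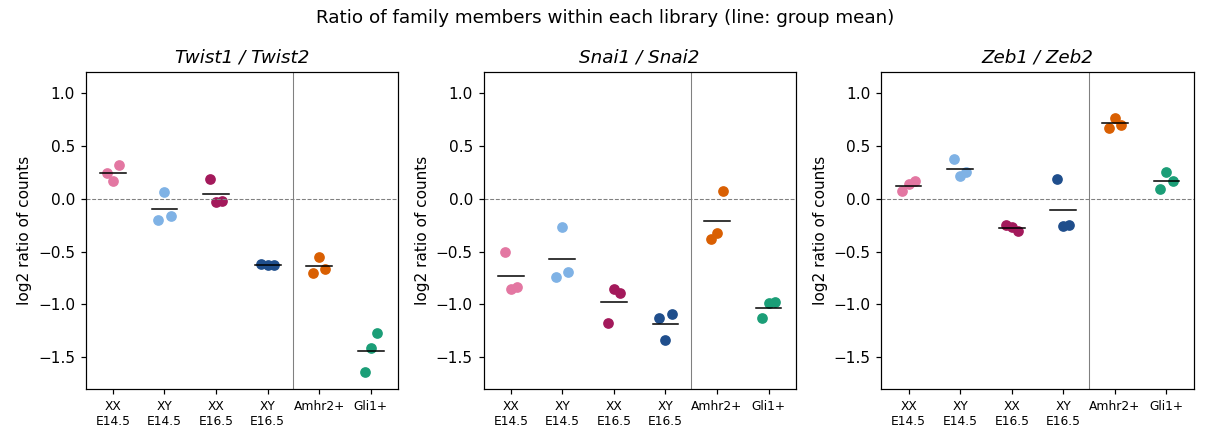
Log2 ratio of counts of 2 relatives within each library, by group; points are libraries and lines are group means, with the uterine groups to the right of the vertical line. For Twist1 to Twist2 the XX and XY points do not overlap at E14.5 or E16.5.

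Per kilobase of the longest coding transcript, Zeb1 had the highest level of the 8 genes in all 4 fetal groups and in Gli1+ uterine cells, between 35.0 and 48.3 CPM per kb. Hand2 was the seventh of 8 in each fetal group, with 2.63 to 5.95 CPM per kb, and Hand1 the last. In Amhr2+ uterine cells Hand2 had the highest level, 47.9 ± 6.37 CPM per kb, next to 37.4 ± 1.99 for Zeb1. The order rested on the length used: over the union of exons Snai2 took the highest place in the fetal groups and in Gli1+ uterine cells, and Hand2 stayed first in Amhr2+ cells.

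Hand2os1, listed as Uph (chromosome 8, 57281117 to 57324233), is a long noncoding RNA read on the strand opposite Hand2. The RefSeq start sites of both genes lie 124 bp apart, and the Hand2 stretch printed above holds the Hand2os1 start. Hand2os1 shares 461 exon bases with Hand2. The use of strand in counting is not given in the sources used here, so the levels of both genes are uncertain where they overlap. Hand2os1 measured 11.9, 12.9 and 11.6 CPM in XX E14.5, 7.07, 5.96 and 6.12 in XY E14.5, 7.64, 9.28 and 5.53 in XX E16.5 and 2.37, 2.59 and 1.66 in XY E16.5. In the uterus it measured 152, 168 and 135 CPM in Amhr2+ and 41.5, 37.0 and 56.3 CPM in Gli1+ cells.

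Hand2os1 was higher in XX already at E14.5, by 0.93 on the log2 scale (SE 0.176, adjusted p 0.00425), when Hand2 was not called. At E16.5 the difference was 1.78 (SE 0.189, adjusted p 3.32e-06), and the change of the difference with age passed (0.85, SE 0.257, adjusted p 0.0485). It fell with age by 0.70 in XX and by 1.54 in XY on the log2 scale (adjusted p 0.00506 and 2.07e-05). In Amhr2+ uterine cells it was higher by 1.75 (SE 0.16, adjusted p 0.000366). The log2 ratio of Hand2 to Hand2os1 counts overlapped between the sexes at both ages and between the ages in XY. It did not overlap between the ages in XX, higher by 0.58 at E16.5, or in the uterus, with a difference of -0.39 in Amhr2+ cells (exact permutation p 0.1 each). Zeb2os, the antisense gene that shares 653 exon bases with Zeb2, measured between 1.77 and 4.20 CPM and was called in no comparison. The same limit of strand applies to this pair.

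The partners of the bHLH members were the E protein genes Tcf3, Tcf4 and Tcf12, and Id1 to Id4, whose proteins bind E proteins without binding DNA. All 7 passed the filter in both tables. In the uterus 3 were higher in Amhr2+ cells and 1 was lower, against 10.1% and 13.7% of all genes. The median log2 difference was 0.20, against 0.00 over all genes. Tcf4 measured 528 ± 37.6 CPM in Amhr2+ and 262 ± 31.2 CPM in Gli1+ cells, 1.01 on the log2 scale (adjusted p 0.000224), Id3 was higher by 0.37 and Id4 lower at -0.79. At E16.5 none of the 7 differed between the sexes by edgeR or DESeq2, with 2 at an unadjusted p under 0.05. Of all genes edgeR called 27.3%. At E14.5 edgeR called Tcf12 alone, at 0.31 (adjusted p 0.0238), against 6.28% of all genes, and DESeq2 called 2. Tcf12 fell with age, from 605 ± 36.9 to 379 ± 13.0 CPM in XX and from 487 ± 47.7 to 336 ± 23.3 CPM in XY.

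Of 10 related factors (Snai3, 2 Scratch genes and other bHLH genes), 6 were tested in the fetal and 5 in the uterine table. Tcf21, a bHLH factor of visceral mesenchyme, was the most abundant. It measured 123 ± 26.6 CPM in XX and 278 ± 12.3 CPM in XY at E16.5, a log2 difference of -1.18 (adjusted p 0.0011), which is the opposite direction to Hand2 and Twist1. At E16.5, 1 of the 6 was higher in XX and 3 were lower, against 13.2% and 14.1% of all genes. In the uterus Tcf21 was lower in Amhr2+ cells (-0.62, adjusted p 0.00282). Of the 5 tested 1 was higher and 2 were lower, against 10.1% and 13.7% of all genes.

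Genes for corepressors that Snail and Zeb proteins recruit numbered 10, all tested. At E14.5 none was called by edgeR or DESeq2, against 6.28% of all genes by edgeR, with 1 at an unadjusted p under 0.05. At E16.5, 3 of 10 were called, against 27.3% of all genes, 1 higher and 2 lower in XX, among them Ezh2, the methyltransferase of histone H3 lysine 27, at -0.34 (adjusted p 0.0284). In the uterus 3 of 10 were called, against 23.9% of all genes: Ctbp2 (0.48) and Ezh2 (0.28) were higher in Amhr2+ cells and Ajuba (-0.48) lower.

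Epithelial genes that Snail and Zeb factors are known to hold down were mostly low in the fetal groups: 13 or 14 of the 20 had a mean under 1 CPM in each group, and 19 passed the filter. Krt18 had the highest mean of the list at E14.5 and Krt19 at E16.5. Between the sexes 1 of 19 tested was called at each age, against 6.28% of all genes at E14.5 and 27.3% at E16.5. It was the keratin gene Krt18, which was lower in XX (-0.66 at E14.5 and -0.65 at E16.5). In the uterus 4 of 17 tested were called, near the share of 23.9% of all genes. All 4 were higher in Amhr2+ cells, against 10.1% higher and 13.7% lower over all genes. Krt18 measured 21.3 ± 2.01 against 9.25 ± 1.66 CPM (log2 1.21), and Epcam 6.61 ± 1.65 against 3.12 ± 1.23 CPM (log2 1.08).

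Among 14 mesenchymal genes often followed with these factors, 11 of 14 tested were called in the uterus, against 23.9% of all genes. In Amhr2+ cells 2 were higher and 9 lower, against 10.1% and 13.7% of all genes. The collagen gene Col1a2 (-1.75), the protease gene Fap (-1.65) and the matrix gene Postn (-1.47) had the largest log2 differences of the list above 5 CPM. At E16.5, 8 of 13 tested differed between the sexes, against 27.3% of all genes. In XX 5 were higher and 3 lower, against 13.2% and 14.1% of all genes. Cdh2, which encodes N-cadherin, measured 49.7 ± 2.96 CPM in XX and 27.2 ± 0.187 CPM in XY (log2 0.87, adjusted p 9.09e-08). Tnc, the tenascin gene, was lower in XX at -0.71.

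Of 11 genes known around Hand2 in uterus, heart and limb (the progesterone receptor Pgr, Bmp, Gata, Msx and Fgf genes), 6 were lower and none higher in XX at E14.5. The shares of all genes were 3.69% lower and 2.59% higher. At E16.5, 1 of the 11 was higher and 7 were lower, against 13.2% and 14.1% of all genes. Pgr was the exception: it measured 99.4 ± 0.51 CPM in XX and 24.5 ± 3.97 CPM in XY (log2 2.02, adjusted p 6.57e-07). Fgf1, a fibroblast growth factor ligand, measured 4.10 ± 1.03 CPM in XX and 13.0 ± 1.41 CPM in XY (-1.66, adjusted p 3.47e-06). Bmp4 measured 11.7 ± 1.92 against 65.0 ± 10.5 CPM (-2.47, adjusted p 4.93e-08).

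In the uterus 3 of the 11 were higher and 4 lower in Amhr2+ cells, against 10.1% and 13.7% of all genes. Gata6, a zinc-finger factor of mesoderm, measured 8.60 ± 0.879 CPM in Amhr2+ and 45.0 ± 4.95 CPM in Gli1+ cells (-2.38, adjusted p 7.74e-06). Msx1, a homeobox gene, was lower in Amhr2+ cells (log2 -1.61), and so was Bmp4 (log2 -1.06). Pgr measured 242 ± 12.4 CPM in Amhr2+ and 207 ± 25.3 CPM in Gli1+ cells.

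The genes whose log2 level was most like each member across the 12 fetal libraries were ranked by Pearson's r over 11313 genes with a mean of at least 5 CPM, as a description. The 12 libraries fall into the same 4 groups, which the levels follow. Hand2 was most like Fbxl19 (r = 0.97), Wnk4 (0.96) and Arhgap23 (0.95). Twist1 was most like Prr12 and Sh2d3c (0.95 each) and next to them like Hand2 (0.94). Twist2 was most like Cers2 (0.97), and Zeb1 most like Tmem209 (0.98). Snai2 and Zeb2 had the least similar first genes, Cand2 (0.90) and AC166328.1.1 (0.93).

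Some of these counts can include reads of other genes. Twist2 overlaps 2 other genes of the tables, Zeb1 overlaps 2 and Zeb2 overlaps 5. Other named genes that overlap at least 1 gene include Tcf4, Tcf12, Id4, Tcf21, Bmp4, Fgf1, Cdh2, Col1a2, Fn1, Tnc, Ezh2, Ctbp2, Pdgfra and Mfap4.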

How the data were processed

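RNA was sequenced from sorted Gli1+ cells (12 fetal libraries) and from Amhr2+ and Gli1+ cells (6 uterine libraries). Per the labels' protocols, fetal libraries used a non-stranded and uterine libraries a stranded kit, so the tables were never fitted together. The tables deposited by the authors hold raw counts per gene, and the deposited peak file gives positions only, once for all ATAC-seq samples. The submitters' processing notes name STAR 2.5, featureCounts, Bowtie 1.2 and MACS2 2.1.1 and the build mm10. The annotation, the use of strand in counting and the peak threshold are not given in the sources used here.

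Group differences were fitted in edgeR 4.0.16 (R 4.3.3) with its quasi-likelihood model (TMM, filterByExpr by group, robust), with Benjamini-Hochberg adjustment over all 17858 fetal or 16195 uterine genes tested and a threshold of 0.05. CPM uses the TMM-scaled total. The SE is the log2 fold change divided by the root of the F statistic. The procedure was tested on simulated data. Alternatives were DESeq2 1.42.0, other scaling, no filter, a replicate block, only the groups compared, and leaving out each library. No library repeated another.

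The members, gene lists and tests were chosen with earlier results of these data known. List genes are named where they had the 3 largest changes of their list among genes called and at or above 5 CPM in the higher group, or as defining genes of a list. Same-numbered libraries of the sexes at E16.5 deviated together (r = 0.28, 0.11 and 0.40), in the data and not by the labels. XX replicate 2 with XY replicate 1 also had r = 0.11. The main tests used no pairing, and the replicate block was run as an alternative only. In the other comparisons at least 1 same-numbered pair was under 0.1. Starts and lengths are from GENCODE and promoters from RefSeq GRCm38.p6, from which 5 of the 8 members were used. Zeb1 was left out beforehand, and Hand1 and Snai2 were not found there.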

Additional observations from a re-analysis of the deposited data

Results flagged for a closer look

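The change of the sex difference with age was tested as an interaction in edgeR's quasi-likelihood fit. At an adjusted p under 0.05, 10% of all genes passed. The 8 genes given here are Hand2os1 and at most 3 called genes per list, so their number follows from that choice. Of the list around Hand2, 6 of 11 genes were called, and of the mesenchymal list 4 of 13 tested. The log2 interaction, XX minus XY at E16.5 less the same at E14.5, was 0.85 for Hand2os1 (listed as Uph) and 2.0 for Pgr. It was 1.01 for Cdh2, 0.80 for Tnc and 0.56 for Fn1. It was -1.73 for Bmp4, -1.38 for Fgf1 and -1.03 for Tcf21.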

How the results depend on the processing

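Of 532 log2 fold changes of members recomputed under an alternative, 515 kept their direction, and none of the 17 with the other direction was called. Of the 14 called values, 10 kept the call under every alternative run. The exceptions were Zeb1 and Zeb2 between the sexes at E16.5, Snai1 with age in XX and Twist2 in the uterus. Of 28 values not called, 11 gained a call under at least 1 alternative. Hand2 was called under every alternative run between the sexes at E16.5, with age in XY and in the uterus.

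The number of members called with age in XX, 2 as reported, was 1 without the low-count filter and 4 with only the groups compared. For the interaction, 0 as reported, it was 1 with DESeq2 and 2 with the replicate block, the one count the block changed. Between the sexes at E14.5, 0 as reported, it was 1, Zeb2, with only the groups compared. The cause was not tested. Leaving out single libraries gave between 0 and 1 members called for sex at E14.5, between 2 and 6 for sex at E16.5, 0 to 2 for the interaction, 1 to 3 with age in XX, 4 to 5 with age in XY and 3 to 4 in the uterus. Of 456 counts called in the gene lists under an alternative, 67 moved by over 1.5 times. Of 48 ranks per length, 29 moved with the exon union, an alternative chosen after seeing the data. Hand1 was the one member under the low-count filter.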
